A study of Mus musculus with 6 samples.

Results

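Laminins, nidogens and perlecan are the glycoproteins that, with type IV collagen, build basement membranes, and their response to TGFβ was followed here in primary mouse cardiac fibroblasts. The set comprised 10 genes, picked by symbol from the 25140 genes of the deposited table: the laminin α chains *Lama1*, *Lama2*, *Lama4* and *Lama5*, the β chains *Lamb1* and *Lamb2*, the γ chain *Lamc1*, the nidogens *Nid1* and *Nid2*, and perlecan, *Hspg2*. All 10 passed the filter on low counts that left 14334 genes for testing. Cells were C57BL/6 fibroblasts of passage 1, taken by the sample labels from the adult heart (the study's results text calls the cells MEFs). They were grown in 10% FBS with 25 mM glucose and held in 1% FBS for 16 h by the labels (24 h by the study's methods). They were then kept for 24 h with vehicle or with 10 ng/ml TGFβ, which turns fibroblasts into contractile, matrix-secreting myofibroblasts. RNA-seq of polyadenylated mRNA was made from 3 libraries per group, described as biological replicates, and between 27851677 and 31072338 reads were counted on genes per library. The 6 columns of counts name the group and no replicate, so libraries are called vehicle A, B and C and TGFβ A, B and C in the order of the table.

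A laminin is a trimer of one α, one β and one γ chain. The α chain carries the globular domains that bind integrins and dystroglycan on the cell surface, and in many laminins, though not all, the short arms join into a sheet. Nidogens bind the γ1 chain and link that sheet to the type IV collagen network. Perlecan, a very large proteoglycan with heparan sulfate chains, binds both networks and holds growth factors. In the heart a basement membrane surrounds every cardiomyocyte and vessel, with the α2 chain typical of striated muscle, and the α4 and α5 chains typical of vessels.

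The cultures carried the markers of the labelled cell type, and genes known to respond to TGFβ rose. All 8 fibroblast markers were expressed, although 6 of them, *Pdgfra* and *Tcf21* among them, fell with TGFβ (edgeR, adjusted p below 0.05). Of all genes tested, 20.1% fell by the same test. The part of the fall of these markers in the results was not tested. All 5 genes chosen to check the TGFβ response rose, among them *Acta2*, *Tagln*, *Postn* and *Ccn2* (listed as *Ctgf*), with a median log2 fold change of 1.49. Endothelial markers were also present, as the sum of 10 genes lay between 496 and 774 CPM (reads per 1000000 counted, with library totals adjusted by TMM) with vehicle and between 449 and 630 CPM with TGFβ. Of 7 cardiomyocyte markers, 6 had a mean below 1 CPM in both groups, *Tnnt2* being the exception. Of 8 pericyte and smooth muscle markers, *Notch3* fell from 207 ± 16.7 to 57.3 ± 7.58 CPM and *Cspg4* rose from 19.5 ± 3.21 to 53.3 ± 12.02 CPM (SD, n = 3 each), while the sum, between 1436 and 1534 CPM, was mostly *Pdgfrb*, and their part in the results was not tested. Leukocyte markers summed to between 37.1 and 54.1 CPM over all libraries.

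Of the 10 genes, 7 changed with TGFβ at an adjusted p below 0.05 in edgeR's quasi-likelihood test, 2 higher and 5 lower. Across all genes tested 40.7% were called, 20.5% higher and 20.1% lower. That share covers genes of every level that passed the filter. The 10 genes were well expressed, from the 52.6th percentile of level (*Lama1*) to the 99.9th (*Hspg2*), and no share was computed for genes of like level. The changes were not in one direction: the α1 and α2 chains rose, the α4, α5 and β2 chains and both nidogens fell, and the β1 chain, the γ1 chain and perlecan did not pass the test. The median log2 fold change of the 10 genes was -0.20, against -0.0013 over all genes tested. In 6 of the 10 the TGFβ libraries lay wholly outside the range of the vehicle libraries, where 53.3% of all genes did. *Lama1* and *Nid2*, at opposite ends, were the 2 with a log2 fold change beyond 1 in size, a limit that 6.77% of all genes tested passed together with the test.

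**Figure D1:**
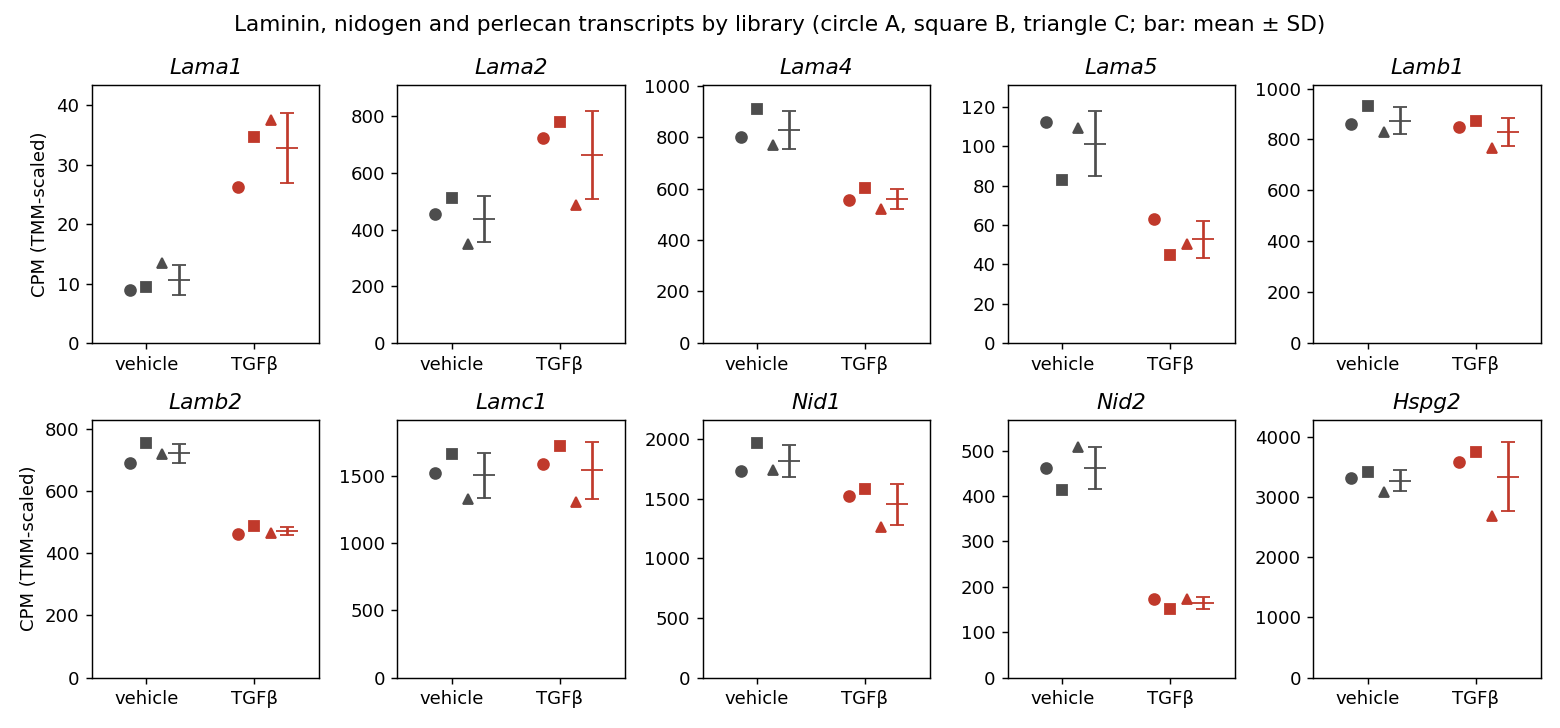
CPM after TMM scaling of each of the 10 genes in the 3 vehicle (grey) and 3 TGFβ (red) libraries, with circles for A, squares for B, triangles for C and bars for mean ± SD; each panel starts at 0 and has its own scale. The groups are apart in *Lama1*, *Lama4*, *Lama5*, *Lamb2*, *Nid1* and *Nid2*, and overlap in *Lama2*, *Lamb1*, *Lamc1* and *Hspg2*.

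The α chain genes were considered first, since the α chain sets which receptors a laminin binds. In the mouse build GRCm38 (mm10) with the GENCODE M21 annotation, the 4 genes, all protein-coding, were *Lama1* (ENSMUSG00000032796; chromosome 17, 67697259 to 67822647, plus strand), *Lama2* (ENSMUSG00000019899; chromosome 10, 26980036 to 27619758, minus strand), *Lama4* (ENSMUSG00000019846; chromosome 10, 38965515 to 39110188, plus strand), and *Lama5* (ENSMUSG00000015647; chromosome 2, 180176373 to 180225859, minus strand). *Lama2* and *Lama5* moved in opposite directions, and their promoters, 250 bases before to 50 after the RefSeq start, are shown for comparison. They are taken from RefSeq (GRCm38.p6), which gave a promoter for 6 of the 10 genes, and are written 5′ to 3′ on the strand of the gene. Capitals mark CAGAC or its reverse complement GTCTG, the short sequence that SMAD proteins, the mediators of TGFβ signaling, bind. The window of *Lama2* is chr10:27616893-27617192 on the minus strand, which lies inside the GENCODE gene span, and that of *Lama5* is chr2:180225810-180226109 on the minus strand.
Lama2: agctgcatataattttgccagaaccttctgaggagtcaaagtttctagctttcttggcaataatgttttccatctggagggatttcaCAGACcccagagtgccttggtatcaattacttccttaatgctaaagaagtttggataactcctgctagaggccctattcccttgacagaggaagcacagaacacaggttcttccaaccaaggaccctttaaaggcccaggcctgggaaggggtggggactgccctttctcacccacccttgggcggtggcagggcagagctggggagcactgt
Lama5: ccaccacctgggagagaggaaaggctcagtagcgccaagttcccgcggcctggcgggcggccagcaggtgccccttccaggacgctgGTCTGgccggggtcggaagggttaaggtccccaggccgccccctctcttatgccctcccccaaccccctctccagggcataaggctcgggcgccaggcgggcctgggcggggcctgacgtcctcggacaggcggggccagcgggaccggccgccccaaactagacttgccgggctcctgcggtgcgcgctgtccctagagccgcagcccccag
Each window held CAGAC once, counting both strands, as did 49.6% of the 32851 promoters of 300 bases at least once. GC content was 50.3% for *Lama2* and 72.7% for *Lama5*, and GGGCGG (the GC box, both strands) occurred 1 and 4 times.

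*Lama1*, which encodes the α1 chain of the early embryo, rose. Its level was 8.89, 9.44 and 13.5 CPM in the vehicle libraries and 26.2, 34.6 and 37.6 CPM in the TGFβ libraries. Every TGFβ library was thus well above every vehicle library, although *Lama1* remained the least abundant of the 10 genes, with 280 to 403 reads per vehicle library and 717 to 1071 with TGFβ. The mean went from 10.6 ± 2.52 to 32.8 ± 5.89 CPM (SD, n = 3 each). The change was 3.09-fold or 1.63 on the log2 scale with a standard error of 0.18 (edgeR, adjusted p = 0.000393). Of all genes tested, 2.60% changed more in size.

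*Lama2*, which encodes the α2 chain whose loss causes a congenital muscular dystrophy, was also called higher. It was counted at 457, 510.2 and 351 CPM with vehicle and at 725, 782 and 489 CPM with TGFβ. Library C was the lowest of each group, and TGFβ C fell below vehicle B, so the groups overlapped. At each column position the TGFβ value was above the vehicle value, though the columns state no pairing. The mean went from 439 ± 81.3 to 665 ± 155 CPM (SD, n = 3 each). The change was 0.60 on the log2 scale with a standard error of 0.19 (edgeR, adjusted p = 0.0383). The call depended on single libraries: the adjusted p from edgeR was 0.0768 without vehicle A, 0.0977 without vehicle C, 0.117 without TGFβ A and 0.121 without TGFβ B, and 0.00565 without TGFβ C.

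*Lama4*, which encodes the α4 chain of vessel and mesenchymal laminins, fell. It had 800.5, 909 and 769 CPM under vehicle and 554, 602 and 522 CPM under TGFβ. The lowest vehicle library stood above the highest TGFβ library by more than the SD of either group. Its mean dropped from 826 ± 73.3 to 559 ± 40.3 CPM (SD, n = 3 each). The change was -0.56 on the log2 scale with a standard error of 0.08 (edgeR, adjusted p = 0.00107).

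*Lama5*, which encodes the α5 chain of vascular and epithelial basement membranes, fell more steeply from a lower level. It had 112, 82.6 and 109 CPM with vehicle and 63.1, 44.6 and 50.1 CPM with TGFβ, library B being the lowest of each group. The groups did not overlap. Its mean dropped from 101 ± 16.3 to 52.6 ± 9.50 CPM (SD, n = 3 each). The change was -0.95 on the log2 scale with a standard error of 0.15 (edgeR, adjusted p = 0.00200). In bulk RNA, fewer cells of a type and less RNA per cell cannot be told apart.

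Endothelial and mesothelial cells also make α4 and α5 chains, so their markers were read in the same libraries. Of the 10 endothelial markers, 0 passed the test by edgeR, DESeq2 or limma-voom (0 at an unadjusted p below 0.05 by edgeR, 1 by DESeq2 and 0 by limma-voom). Of all genes tested by edgeR, 40.7% passed, and 7020 of 14334 had an unadjusted p below 0.05. All these tools read the same counts. Several markers varied widely within groups, so 0 calls do not show that endothelial RNA was unchanged. The median log2 fold change of the 10 markers was -0.30. Their sum was 496, 565 and 774 CPM in vehicle A, B and C and 449, 502 and 630 CPM in TGFβ A, B and C. The ranges of the groups overlapped, library C was the highest of each group, and at each column position the TGFβ sum was below the vehicle sum. Not every marker followed the sum. *Tek* went from 82.3 ± 9.36 to 97.8 ± 15.8 CPM (SD, n = 3 each; edgeR, adjusted p = 0.144). It was higher with TGFβ at each position and lowest in library C of each group. *Emcn* had means of 41.1 and 41.3 CPM, and the other markers had a log2 fold change below 0. Of the 8 mesothelial and epithelial markers, 6, *Epcam* and *Cdh1* among them, had a mean under 1 CPM in both groups. The 8 summed to 63.3, 23.3 and 28.2 CPM with vehicle and to 36.4, 15.4 and 18.0 CPM with TGFβ. This sum too was lower with TGFβ at each column position, and much of it was *Upk3b*, which went from 32.4 ± 18.2 to 16.3 ± 7.20 CPM (SD, n = 3 each; edgeR, adjusted p = 0.0935). Comparisons by position are descriptive only, as the columns carry no replicate numbers. The part of either cell type in the falls of *Lama4*, *Lama5* and *Nid2* was not tested.

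**Figure D2:**
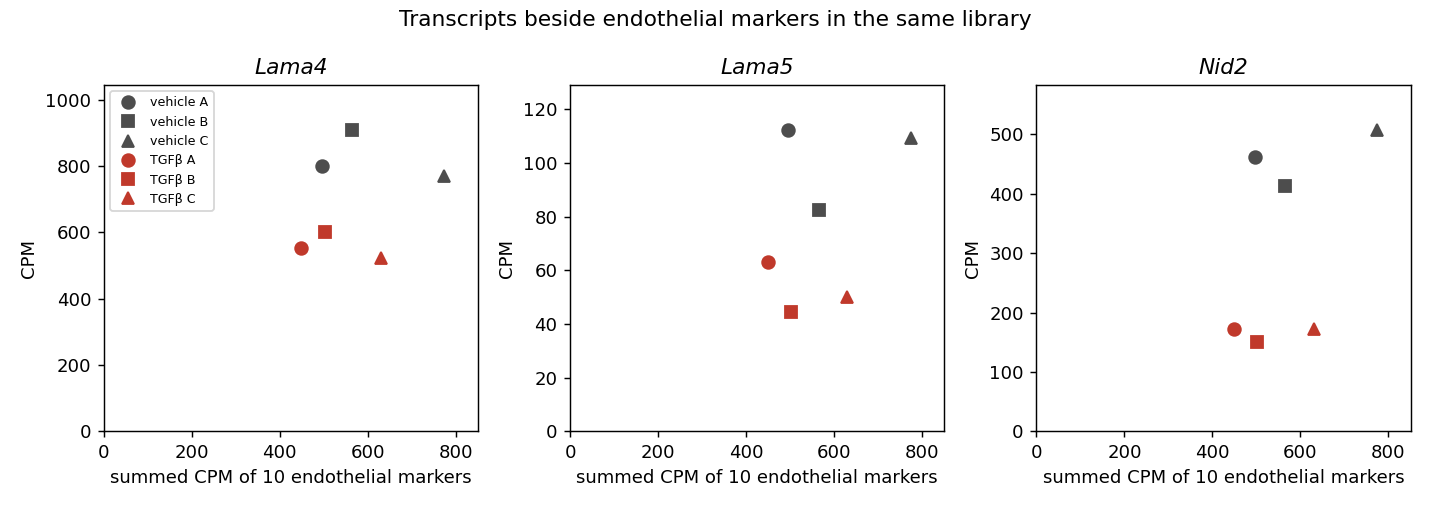
CPM of *Lama4*, *Lama5* and *Nid2* (vertical axes) against the summed CPM of 10 endothelial markers (horizontal axes), 1 point per library, vehicle in grey and TGFβ in red. The TGFβ libraries lie lower in each panel, and their marker sums, from 449 to 630 CPM, overlap with the vehicle sums, from 496 to 774 CPM, but are lower at each column position (circle A, square B, triangle C).

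The β and γ chains complete the trimer, and the 2 β chains behaved differently. *Lamb1* (ENSMUSG00000002900; chromosome 12, 31265234 to 31329644, plus strand) encodes the β1 chain found in most tissues. *Lamb2* (ENSMUSG00000052911; chromosome 9, 108479736 to 108490530, plus strand) encodes the β2 chain of the neuromuscular junction, the kidney filter and vessel walls. Because one of these related genes fell and the other did not pass the test, their promoters are set side by side, again from RefSeq (GRCm38.p6) with CAGAC or GTCTG in capitals. The window of *Lamb1* is chr12:31265043-31265342 and that of *Lamb2* chr9:108479612-108479911, both on the plus strand.
Lamb1: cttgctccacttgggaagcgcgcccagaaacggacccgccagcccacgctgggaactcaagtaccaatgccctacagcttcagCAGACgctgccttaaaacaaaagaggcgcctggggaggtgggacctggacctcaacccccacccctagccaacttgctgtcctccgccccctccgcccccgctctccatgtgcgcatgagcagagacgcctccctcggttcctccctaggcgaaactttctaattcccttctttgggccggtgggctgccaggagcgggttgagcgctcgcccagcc
Lamb2: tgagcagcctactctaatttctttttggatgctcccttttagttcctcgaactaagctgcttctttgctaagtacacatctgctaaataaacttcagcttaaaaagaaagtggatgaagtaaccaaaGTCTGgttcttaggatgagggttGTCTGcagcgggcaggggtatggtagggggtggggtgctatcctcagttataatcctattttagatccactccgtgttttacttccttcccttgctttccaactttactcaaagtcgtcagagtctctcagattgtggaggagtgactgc
The *Lamb1* window held CAGAC once and the *Lamb2* window 2 times, counting both strands. GGGCGG occurred 2 times in the *Lamb1* window and 0 times in that of *Lamb2*, while 35.7% of all promoters of this length held it at least once. GC content was 63.7% and 44.0%, against a median of 52.7% over all promoters.

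*Lamb2* had 691, 753 and 718 CPM under vehicle and 463, 488 and 465 CPM under TGFβ. It was the most even of the 10 genes within groups, with a coefficient of variation of 4.34% with vehicle and 2.93% with TGFβ, and the groups lay far apart. Its mean dropped from 720.4 ± 31.2 to 472 ± 13.8 CPM (SD, n = 3 each). The change was -0.61 on the log2 scale with a standard error of 0.05 (edgeR, adjusted p = 8.67e-05). *Lamb1* had 860.4, 931 and 827 CPM with vehicle and 849, 874 and 767 CPM with TGFβ, and these ranges overlapped. Its means were 873 ± 52.9 and 829.8 ± 56.2 CPM (SD, n = 3 each). The change was -0.07 on the log2 scale with a standard error of 0.07 (edgeR, adjusted p = 0.429).

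*Lamc1* (ENSMUSG00000026478; chromosome 1, 153218922 to 153332786, minus strand) encodes the γ1 chain shared by most laminins. It had 1522, 1663 and 1325 CPM in the vehicle libraries and 1590.2, 1725 and 1309 CPM in the TGFβ libraries. The groups covered nearly the same range, with library C lowest in each. The means were 1503 ± 169.7 and 1541 ± 212 CPM (SD, n = 3 each). The change was 0.04 on the log2 scale with a standard error of 0.12 (edgeR, adjusted p = 0.831), which was -0.047 without vehicle C and -0.055 without TGFβ B.

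Laminin chains outside the set, most of them typical of epithelia, were scarce. *Lamb3* fell from 3.32 ± 0.951 to 1.55 ± 0.341 CPM (SD, n = 3 each). The change was -1.10 on the log2 scale with a standard error of 0.26 (edgeR, adjusted p = 0.0122). *Hsd11b1* and *G0s2*, on the opposite strand, overlap the annotated span of *Lamb3*. They had 40465 and 7594 counts over all libraries, against 434 for *Lamb3*. The part of their reads in the counts of *Lamb3* was not tested. *Lamc3*, with 7 to 94 reads per library, did not pass the test (adjusted p = 0.323 from edgeR). *Lama3*, with 6 to 25 reads, was left out by the filter on low counts.

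Nidogens bridge the laminin and collagen networks, and both fell, to unequal extents. *Nid2* (ENSMUSG00000021806; chromosome 14, 19751265 to 19811787, plus strand) was counted at 463, 414 and 507 CPM with vehicle and at 172, 150.2 and 173 CPM with TGFβ. Every TGFβ library stood far below every vehicle library. The mean dropped from 461 ± 46.8 to 165 ± 13.0 CPM (SD, n = 3 each). The change was 2.79-fold or -1.48 on the log2 scale with a standard error of 0.09 (edgeR, adjusted p = 2.11e-05). It stood at the 1.98th percentile of the log2 fold changes of all genes tested. *Rtraf*, on the opposite strand, shares 437 exonic bases with *Nid2*, and whether counting used strand is not given in the sources used here. *Rtraf* had 26.8% as many counts as *Nid2* over all libraries and changed by 0.0040 on the log2 scale with a standard error of 0.052.

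*Nid1* (ENSMUSG00000005397; chromosome 13, 13437551 to 13512269, plus strand) was the more abundant nidogen. It had 1736, 1968 and 1741 CPM in the vehicle libraries and 1519.9, 1583 and 1259.8 CPM in the TGFβ libraries. The groups did not overlap, though the gap between vehicle A and TGFβ B was about the size of the SD of either group. The mean dropped from 1815 ± 132 to 1454 ± 171 CPM (SD, n = 3 each). The change was -0.32 on the log2 scale with a standard error of 0.09 (edgeR, adjusted p = 0.0293). The call was lost without vehicle B (adjusted p = 0.103 from edgeR) and without TGFβ A (adjusted p = 0.0502 from edgeR).

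*Hspg2* (ENSMUSG00000028763; chromosome 4, 137468769 to 137570630, plus strand) encodes perlecan and was the most abundant of the 10 genes in CPM. It had 3321, 3414 and 3082 CPM with vehicle and 3588, 3743 and 2689 CPM with TGFβ. The TGFβ libraries spread on both sides of the vehicle libraries, with a coefficient of variation of 17.0% against 5.24%. The means were 3272 ± 172 and 3340.4 ± 569 CPM (SD, n = 3 each). The change was 0.03 on the log2 scale with a standard error of 0.12 (edgeR, adjusted p = 0.867). The value ran from -0.063 without TGFβ B to 0.16 without TGFβ C, and was also below 0 without vehicle C or TGFβ A.

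**Figure D3:**
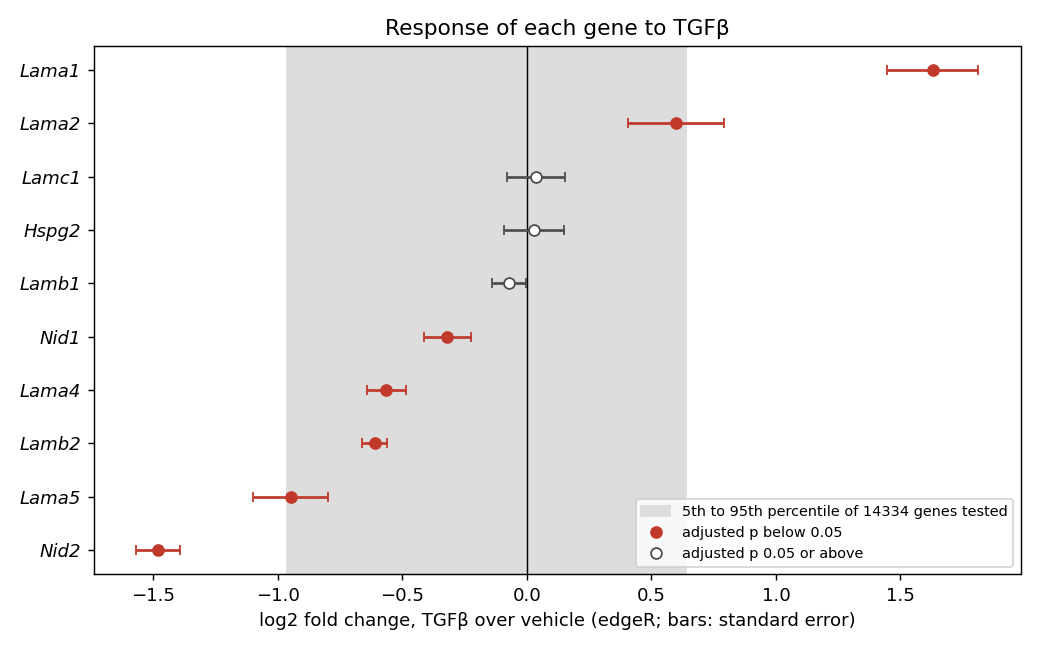
Log2 ratio of TGFβ to vehicle (horizontal axis) for each gene, with the standard error from edgeR as bars, filled where the adjusted p was below 0.05; the grey band runs from the 5th to the 95th percentile of all 14334 genes tested (-0.96 to 0.64). *Nid2* and *Lama1* lie outside the band, and *Lamc1*, *Hspg2* and *Lamb1* lie next to 0.

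The balance between chains was then examined within each library, where it does not depend on the scaling between libraries. Levels were divided by the exonic length of each gene, since long transcripts give more reads. The α sum over *Lama1* to *Lama5* was led by *Lama4*, at 65.0 ± 1.66% with vehicle and 49.0 ± 3.54% with TGFβ (SD, n = 3 each). The share of *Lama2* went from 25.4 ± 2.67% to 42.4 ± 4.93%, that of *Lama5* from 8.56 ± 1.96% to 4.91 ± 1.04%, and that of *Lama1* from 1.06 ± 0.340% to 3.64 ± 1.03% (SD, n = 3 each). By the longest transcript the share of *Lama5* was lower, at 4.70% and 2.75%, as was that of *Lama1*, at 0.590% and 2.07%. For each of these 4 chains the shares of the groups did not overlap, including that of *Lama2*, whose CPM did. The shares are parts of the same sum, so that of *Lama2* also depends on the falls of *Lama4* and *Lama5*. In single libraries *Lama2* made up 26.6%, 27.2% and 22.3% of the α sum with vehicle and 45.0%, 45.5% and 36.7% with TGFβ.

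Among β chains the share of *Lamb1* was 43.2%, 43.0% and 41.3% under vehicle and 52.9%, 52.3% and 50.2% under TGFβ. By the longest transcript its mean share was 54.0% with vehicle and 63.0% with TGFβ, and by coding length 54.1% and 63.1%. Whether *Lamb1* or *Lamb2* led with vehicle thus depended on the length used, while the share was higher with TGFβ by each length. *Nid1* made up 74.5 ± 3.14% of the nidogen sum with vehicle and 86.6 ± 2.13% with TGFβ (SD, n = 3 each). The log2 ratio of the β sum to the γ sum went from 0.18 ± 0.12 with vehicle to -0.22 ± 0.14 with TGFβ (SD, n = 3 each), and that of the α sum to the γ sum from -0.80 ± 0.042 to -0.99 ± 0.013 (SD, n = 3 each). The sign of such ratios depended on the length used: β to γ went from 0.49 to 0.15 by the longest transcript and from -0.099 to -0.44 by coding length, and α to γ from -0.050 to -0.28 and from -0.59 to -0.84. The log2 ratio of *Hspg2* to *Lamc1* was 0.34 ± 0.09 with vehicle and 0.32 ± 0.07 with TGFβ (SD, n = 3 each), and those ranges overlapped. By coding length it was -0.32 and -0.34. Of the 13 shares and ratios compared, 11 did not overlap between groups, each with p = 0.1 in the two-sided exact permutation test (0.118 adjusted over the 13). This is the smallest p that 3 libraries against 3 allow, so none could reach 0.05. The 13 are not independent: the α shares are parts of the same sum, and the β and nidogen pairs each enter as a share and as a ratio. By CPM, 53.3% of all genes tested did not overlap between groups.

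**Figure D4:**
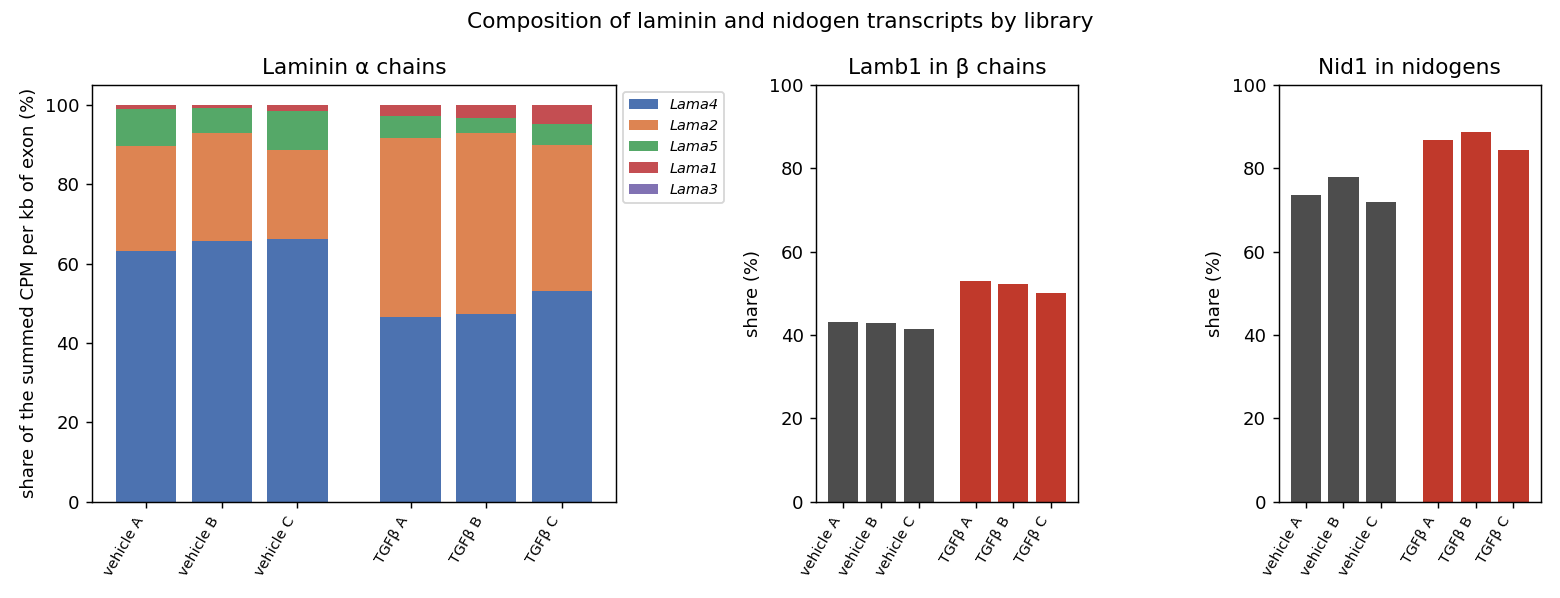
Share of each laminin α chain in the α sum (left, stacked), of *Lamb1* in the β sum (middle) and of *Nid1* in the nidogen sum (right), in percent of CPM per kb of exon, 1 bar per library. *Lama2* takes 22.3% to 27.2% of the α sum with vehicle and 36.7% to 45.5% with TGFβ, while *Lama3* is too low to be seen.

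By level per kb of exon, the order with vehicle was *Nid1* (261 ± 19.1 CPM per kb), *Hspg2* (229 ± 11.99), *Lamc1* (182 ± 20.5), *Lamb2* (118 ± 5.14), *Nid2* (89.1 ± 9.04), *Lamb1* (88.0 ± 5.33), *Lama4* (68.5 ± 6.07), *Lama2* (26.9 ± 4.97), *Lama5* (8.90 ± 1.43) and *Lama1* (1.10 ± 0.261), each SD with n = 3. Among neighbours in that order, *Nid2* and *Lamb1* overlapped between libraries and the others did not. With TGFβ the leading trio was *Hspg2*, *Nid1* and *Lamc1*, whose ranges overlapped, and *Nid2* came after *Lama4* and *Lama2*, at 31.9 ± 2.51 CPM per kb (SD, n = 3), though it overlapped with *Lama2*. Places in the order depended on the length used. By the longest transcript *Lama4*, at 136.7 CPM per kb, came before *Lamb2*, at 128 CPM per kb, and *Nid2* with vehicle, and with TGFβ *Nid1* came before *Hspg2* and *Lama4* before *Lamb2*. *Lamb1* moved as well, as it made up 42.5 ± 1.02% of the β sum with vehicle by exonic length and 54.0 ± 1.04% by the longest transcript (SD, n = 3 each).

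Other genes of the basement membrane, their receptors and the enzymes of their sugar chains were read against the 40.7% of all genes called, 20.5% higher and 20.1% lower. Of 9 type IV and other basement membrane collagens, all tested, 1 rose, 3 fell and 5 did not pass the test, with a median log2 fold change of -0.14. *Col7a1*, the anchoring fibril collagen, rose from 8.02 ± 0.470 to 30.5 ± 1.504 CPM (SD, n = 3 each). The change was 1.93 on the log2 scale with a standard error of 0.07. *Col4a6* (log2 fold change -0.64), *Col4a5* (-0.33) and *Col18a1* (-0.58) fell. *Col4a1*, the most expressed, went from 5337 ± 381 to 4856 ± 317 CPM (SD, n = 3 each; adjusted p = 0.196 from edgeR). *Col4a5* and *Col18a1* were added to the named genes after their values were seen.

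Of 20 other basement membrane proteins, 19 were tested, of which 2 rose, 6 fell and 11 did not pass the test, with a median log2 fold change of -0.16. *Fbln1*, a laminin- and nidogen-binding fibulin, had the largest fall, from 259.9 ± 52.9 to 87.8 ± 20.4 CPM (SD, n = 3 each). The change was -1.57 on the log2 scale with a standard error of 0.19. *Frem1* also fell (log2 fold change -0.93). The 2 that rose, named after their values were seen, were *Ntn4* (log2 fold change 0.63), a netrin that binds the laminin γ1 short arm, and *Pxdn* (log2 fold change 0.53), the peroxidasin that crosslinks type IV collagen. *Sparc*, the most expressed, had 9835 ± 177 and 10810 ± 198 CPM (SD, n = 3 each; adjusted p = 0.0927 from edgeR).

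On the receptor side, the list of 13 genes held laminin receptors and also the sarcoglycans, dystrophin and utrophin of the dystroglycan complex. Of these 13 genes, 12 were tested, of which 2 rose, 3 fell and 7 did not pass the test. *Itgb1*, the integrin β1 subunit and the most expressed, rose from 1888 ± 24.7 to 2179.7 ± 40.2 CPM (SD, n = 3 each). The change was 0.21 on the log2 scale with a standard error of 0.05. *Itga3*, a laminin-binding integrin α subunit named after its values were seen, was the other that rose (log2 fold change 0.48). *Bcam*, a receptor for the α5 chain, fell by 0.61 on the log2 scale. The other falls were of sarcoglycans, *Sgce* by 0.59 and *Sgcb*, also named afterwards, by 0.12. *Dag1*, which encodes dystroglycan, had 576 ± 18.4 and 595 ± 30.4 CPM (SD, n = 3 each; adjusted p = 0.520 from edgeR).

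Dystroglycan binds laminin through a sugar chain. The list of 18 genes covered its synthesis and also the supply of mannose, which other sugar chains use too. Of the 18, 17 were tested, of which 5 rose, 0 fell and 12 did not pass the test. Of all genes tested, 20.5% rose and 20.1% fell. DESeq2 and limma-voom also called 0 of the 17 lower, and 0 were lower at an unadjusted p below 0.05 by any of the 3 tools. *Gmppb*, which makes GDP-mannose, rose from 31.0 ± 0.734 to 46.4 ± 1.18 CPM (SD, n = 3 each). The change was 0.58 on the log2 scale with a standard error of 0.04, and *Pomgnt1* rose by 0.41 on the log2 scale with a standard error of 0.04. *B3galnt2* (0.31) and *Pomt2* (0.27), named after their values were seen, also rose. The median log2 fold change of the 17 genes was 0.04.

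Perlecan needs heparan sulfate chains, and of 26 genes for their synthesis and trimming 23 were tested, of which 9 rose, 3 fell and 11 did not pass the test, where 20.5% of all genes rose and 20.1% fell. *Ext1*, a subunit of the polymerase that extends the chain, rose from 242 ± 4.14 to 443 ± 9.63 CPM (SD, n = 3 each). The change was 0.87 on the log2 scale with a standard error of 0.04. *Ext2*, the other subunit, named after its values were seen, did not pass the test. It had 183 ± 4.33 and 171 ± 7.32 CPM (SD, n = 3 each; log2 fold change -0.10, adjusted p = 0.126 from edgeR). *Sulf1*, a sulfatase that trims the chains and the most expressed, rose by 0.59 on the log2 scale with a standard error of 0.05. *Ndst3*, an N-deacetylase and N-sulfotransferase of low abundance, fell from 4.11 ± 0.524 to 1.16 ± 0.150 CPM (SD, n = 3 each). The change was -1.82 on the log2 scale with a standard error of 0.17. The median log2 fold change of the 23 genes was 0.06, and *Hspg2* itself, at 0.03, did not pass the test.

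**Figure D5:**
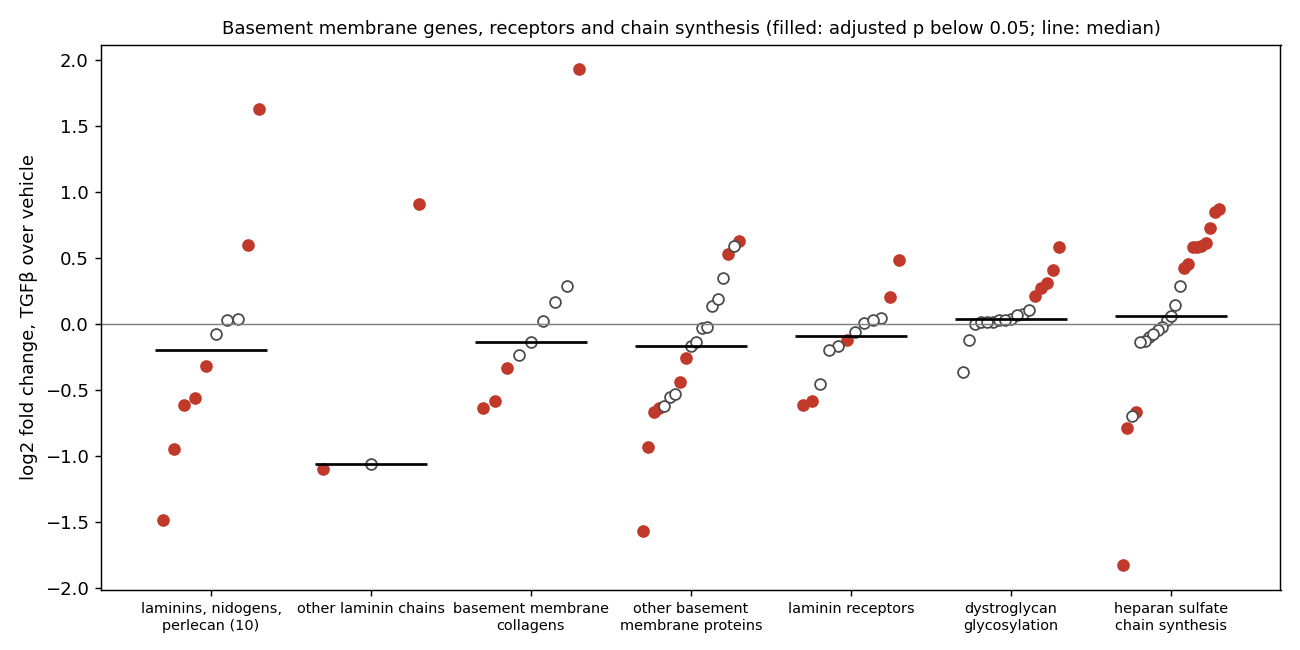
Log2 ratio of TGFβ to vehicle (vertical axis) of each tested gene in the 10-gene set and in 6 related lists, filled where edgeR's adjusted p was below 0.05, with the median as a line. The 10 genes and the basement membrane proteins spread to both sides of 0, while all 5 filled points of the dystroglycan glycosylation list lie above it.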

How the data were processed

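RNA-seq was analysed in 3 vehicle and 3 TGFβ libraries. By the study's methods and labels, the authors made strand-marking libraries from polyadenylated RNA, read 75 bases from one end, mapped to mm10 and tested with DESeq2. The deposited table holds whole-number counts of reads per gene, not normalized. The aligner, the counting tool and the use of strand are not given in the sources used here. The deposited mean, fold change and p columns, which hold the authors' own comparison, were not used. Low counts were removed with filterByExpr, libraries were scaled by TMM and groups were compared by the quasi-likelihood test of edgeR 4.0.16 (R 4.3.3), with Benjamini-Hochberg adjustment over 14334 genes and a threshold of 0.05. The standard error is the log2 fold change over the square root of F. The biological coefficient of variation was 7.97%. Counting error was at most 5.98% for any of the 10 genes in any library (*Lama1*), below the spread between replicates. No replicates agreed within counting noise (chi-square per gene 7.95 to 27.1), and where cultures share a heart, which is not stated, p-values measure the spread between these libraries only.

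Exonic length is the union of annotated exons in GENCODE M21, in which 25086 of 25140 identifiers were found. Of the 75-base windows of the 10 genes, 0% to 1.35% occur in other genes, and overlapping genes other than *Rtraf* had at most 0.00676% of a gene's counts. The edgeR steps were run on simulated counts of 14337 genes, of which 200 were changed. Of these, 90% were recovered (98% of the larger changes and 82% of the smaller), and 5.76% of the genes called were unchanged ones. So few changed genes do not test the steps where 40.7% of genes are called, as here. The members and lists were chosen with earlier results of these data known. All 10 genes are named and, per list, the 2 called genes with the largest change and the most expressed one, except that some genes are not reported here. Results were recomputed using DESeq2 size factors in edgeR or upper quartile scaling, DESeq2 1.42.0, limma-voom (limma 3.58.1), no filter on low counts, at least 1 CPM in 3 libraries, leaving out 1 library at a time, stricter limits (adjusted p 0.01, or log2 values past 1 in size), and other gene lengths. *Dag1*, *Tnnt2*, *Upk3b*, *Notch3*, *Cspg4*, *Pdgfrb*, *Epcam*, *Cdh1*, *Tek*, *Emcn*, *Pdgfra*, *Tcf21*, *Rtraf*, *Hsd11b1* and *G0s2* are named because a result turns on them.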

Additional observations from a re-analysis of the deposited data

How the results depend on the processing

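Of the 10 genes, 6 (*Lama1*, *Lama4*, *Lama5*, *Lamb1*, *Lamb2* and *Nid2*) kept their direction and their side of the threshold under all 12 alternatives run on single genes, and the number called was 7 under the 6 that change scaling, tool or filter. With each library left out it was 5, without TGFβ A, to 7, and the log2 fold change ran from 0.46 to 0.77 for *Lama2*, from -0.39 to -0.23 for *Nid1*, from -0.055 to 0.13 for *Lamc1* and from -0.063 to 0.16 for *Hspg2*, while the change in the log2 ratio of *Hspg2* to *Lamc1* ran from -0.061 to 0.029. The smaller number of libraries is part of those fits, and no further cause was tested. A log2 fold change beyond 1 left 2 of the 10 genes and 971 of all genes (346 higher, 625 lower), and an adjusted p of 0.01 left 5 of the 10 genes, without *Lama2* and *Nid1*, and 3595 of all genes (1855 higher, 1740 lower), both being stricter than the main 5828 (2944 higher, 2884 lower). Over the lists other than the cell type markers, 41 genes were called, among them the 5 chosen to check the TGFβ response. These lists held 3, 9, 19, 12, 17, 23 and 5 tested genes, and 40.7% of all genes tested were called. The number called was 41 to 43 under other scaling, tools or filters and 35 to 38 with a library left out. No paired analysis was possible because the columns of counts carry no replicate numbers. Other lengths turned no difference between groups in chain shares or ratios, though they moved the levels and, for some ratios, their sign. Depth limits *Lama3*, with at most 25 reads, and *Lamc3*.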

Other observations

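For 9 of the 10 genes, the lowest vehicle library and the lowest TGFβ library stood at the same position among their group's columns (A, B or C), *Nid1* being the exception. In 5 of the genes, *Lama2*, *Lama4*, *Lamb1*, *Lamc1* and *Hspg2*, that was library C in both groups, which also had the highest sum of endothelial markers in each group (774 CPM with vehicle and 630.3 CPM with TGFβ). The genes share their libraries and are not independent of each other. How often the lowest libraries share a position was not computed over all genes tested, so this is not shown to be particular to the 10 genes. The table does not say whether columns at the same position come from the same preparation of cells. No test paired libraries by position. The comparisons by position, of markers and of *Lama2*, are descriptive only, as they assume a pairing that the table does not state.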
